A study of Mus musculus with 4 samples.

Results

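The respiratory chain genes described here are the nuclear and mitochondrial genes whose products form the enzyme complexes of oxidative phosphorylation. Members were chosen by gene symbol alone (mitochondrial Nd, Co, Cytb and Atp genes, and nuclear Nduf, Sdh, Uqcr, Cox4 to Cox8 and Atp5 genes), which took 97 of the 32285 mouse genes in the files. Of these, 84 are encoded in the nucleus and 13 in the mitochondrial genome. By symbol, complex I holds 37 nuclear and 7 mitochondrial members, complex II 4 nuclear members, complex III 8 and 1, complex IV 18 and 3, and complex V 17 and 2. The rule leaves out cytochrome c1 (*Cyc1*), a complex III subunit with a symbol of its own.

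Complexes I to IV sit in the inner mitochondrial membrane and pass electrons from NADH and succinate to oxygen, complexes I, III and IV pump protons, and complex V, the ATP synthase, uses the proton gradient to make ATP. Complex II, succinate dehydrogenase, is built from nuclear genes alone, whereas the other complexes combine nuclear subunits with membrane subunits read from mitochondrial DNA. Several nuclear subunits exist as isoforms that are exchanged between tissues or with oxygen supply, and endothelial cells are known to rely strongly on glycolysis.

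The study sorted single cells from hyaloid vessels, the transient vessels of the eye that regress after birth, at postnatal day 6. Control pups were Gpr124 fl/fl and knockout pups Gpr124 dEC/dEC, that is, Gpr124 fl/fl with a Cre recombinase driven by the VE-cadherin promoter, which deletes the WNT7 co-receptor GPR124 in endothelium only. Both genotypes received tamoxifen after birth. Vitreous bodies were pooled by genotype into 1 suspension each, from which CD31-positive or PDGFRB-positive live cells were sorted into 2 plates of 384 wells per genotype, so that a genotype has no biological replicate and the plates of a genotype are repeated draws from the same pool.

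A well was taken as a cell with 1000 to 8000 unique molecular identifiers (UMIs, counts of captured mRNA molecules) after scaling of plates and less than 10% mitochondrial UMIs. Wells with *Cldn5* and no *Pdgfrb* UMIs were called endothelial, and those with *Pdgfrb* and no *Cldn5* UMIs pericytes. This left 32 cells with 111508 UMIs: 5 control and 6 knockout endothelial cells, and 9 control and 12 knockout pericytes. No pericyte came from knockout replicate 1, so all 12 knockout pericytes share a plate. By plate and without *Cldn5*, which the rule used, endothelial markers summed to 89.3 to 157 UMIs per 10000 in cells called endothelial and to 10.96 to 18.9 in pericytes. Without *Pdgfrb*, the pericyte list summed to 93.65 to 171 per 10000 in pericytes and to 3.35 to 35.3 in endothelial cells, the highest in control replicate 1. Lens, melanocyte and fibroblast lists were at or near 0. The macrophage list had 4 UMIs in endothelial cells, 0 in control pericytes and 13 (2.69 per 10000) in knockout pericytes, and its part in the genotype ratios of pericytes was not tested. Erythroid genes reached 260 UMIs per 10000 in the endothelial cells of control replicate 2 and 0 to 5.07 elsewhere. *Adgra2*, the gene for GPR124, had 3 UMIs in control and 0 in knockout endothelial cells, against 7 and 17 in pericytes, a depth at which the deletion could not be measured. All plates use the same 384 well barcodes, and the barcodes of 10 of the 32 cells also held at least 1000 UMIs on another plate.

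Respiratory chain transcripts made up 6.08% of the UMIs of endothelial cells and 6.62% of those of pericytes. Of the 84 nuclear members, 81 were detected. The other 3 (*Cox7b2*, *Cox8b* and *Cox8c*), which are known from testis or muscle, were at 0 in all 32 cells, which allows up to 3 UMIs of the total. All 13 mitochondrial genes were detected, although *mt-Nd6*, the member on the opposite strand, had only 2 UMIs. In endothelial cells, nuclear members held 534 of 31048 UMIs (1.72%, exact 95% interval 1.58 to 1.87%) and mitochondrial members 1354 (4.36%, 4.14 to 4.59%). Pericytes had 1740 nuclear UMIs of 80460 (2.16%, 2.06 to 2.27%) and 3584 mitochondrial UMIs (4.45%, 4.31 to 4.599%). These and all later intervals cover counting error only, not differences between cells, plates or animals.

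With genotypes pooled, the share of nuclear members was lower in endothelial cells than in pericytes, and that of mitochondrial members was nearly equal. The log2 ratio of endothelial to pericyte share was -0.33 (-0.47 to -0.19) for nuclear and -0.03 (-0.12 to 0.06) for mitochondrial members. Most of the nuclear difference lay in knockout cells, with 1.48% (1.30 to 1.68%) in endothelial cells and 2.24% (2.11 to 2.38%) in pericytes. Control cells had 1.97% (1.75 to 2.20%) and 2.05% (1.89 to 2.21%), intervals that overlap. Of the 6 knockout endothelial cells, 4 came from knockout replicate 1, which held no pericyte. Mitochondrial members had 4.65% and 4.04% in control and 4.09% and 4.73% in knockout cells, in opposite orders. Plates differed as well. Within knockout replicate 2, control replicate 1 and control replicate 2, the nuclear ratio was -0.41, -0.25 and 0.08 (SD 0.25, n = 3 plates), so in the last plate endothelial cells were not lower. The mitochondrial ratios within the same plates were -0.29, 0.07 and 0.30 (SD 0.30), spread to both sides of 0. The ratio of mitochondrial to nuclear member UMIs was 2.54 (2.29 to 2.81) in endothelial cells and 2.06 (1.95 to 2.18) in pericytes. Among endothelial plates it was 3.93 in knockout replicate 1 and 2.29 to 2.46 in the other 3.

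**Figure D1:**
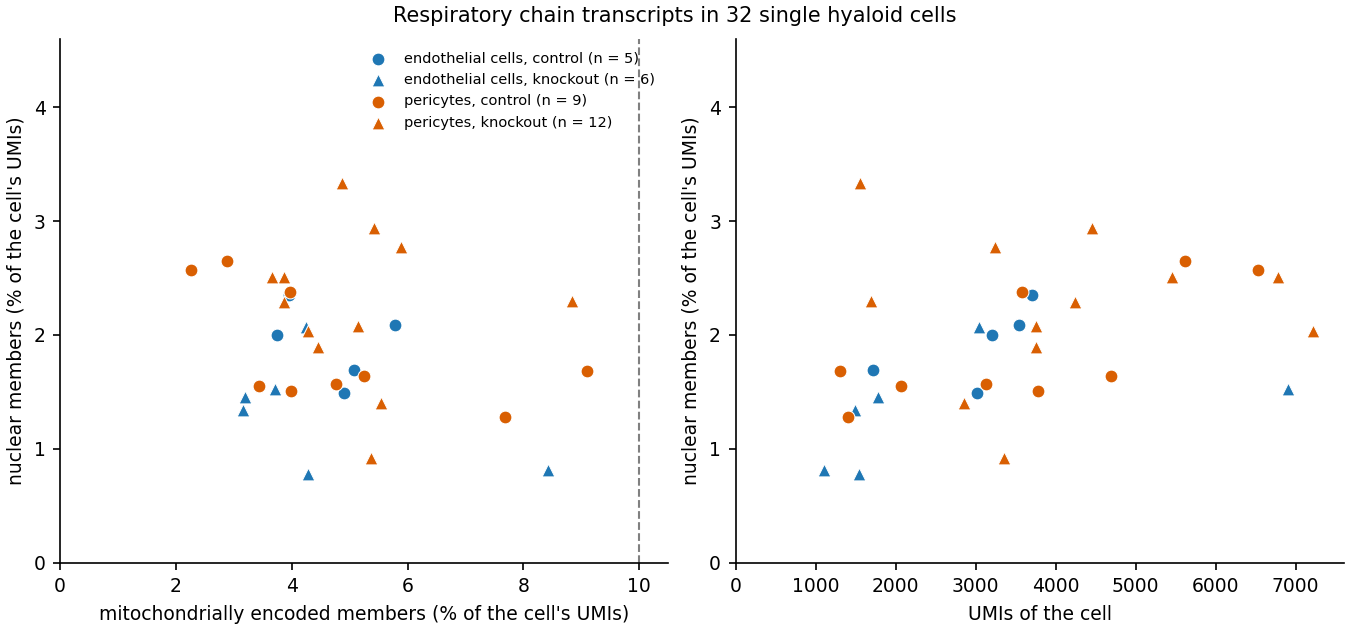
Each point is 1 of the 32 cells, coloured by class and shaped by genotype. Nuclear members (percent of the cell's UMIs) are plotted against mitochondrially encoded members (left, dashed line at the 10% limit of the well filter) and against the cell's UMIs (right). The lowest nuclear shares, down to 0.779%, belong to knockout endothelial cells, and the highest, 3.33%, to a knockout pericyte.

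Single cells varied more than counting alone gives. In the 11 endothelial cells the nuclear share ran from 0.779 to 2.35% (median 1.52%), with an SD of 0.509 percentage points where counting error accounts for about 0.278. In the 21 pericytes it ran from 0.925 to 3.33% (median 2.08%), with an SD of 0.617 against 0.266 from counting. The mitochondrial share ran from 3.15 to 8.42% in endothelial cells and from 2.27 to 9.09% in pericytes, and its upper end is set by the 10% limit. Across the 21 pericytes, cells with more UMIs had lower mitochondrial shares (Pearson r = -0.68, Spearman rho = -0.65). Across the 11 endothelial cells, cells with more UMIs had higher nuclear shares by rank (rho = 0.78, r = 0.45). These are descriptions over cells that share plates, and the UMI total is also the denominator of each share. Nuclear and mitochondrial shares were only weakly related within either class (r = -0.33 and rho = 0.05 in endothelial cells, r = -0.255 and rho = -0.26 in pericytes).

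Wells outside the filters framed these values. In the 1478 wells with fewer than 1000 UMIs (median 127), mitochondrial members held 11.5% of UMIs (10.6 to 12.5% by plate) and nuclear members 1.40% (1.37 to 1.44%). In the 11 wells above 8000 UMIs the shares were 2.78% and 2.21%. The ratio of mitochondrial to nuclear member UMIs thus went from 8.24 in the near-empty wells to 2.17 in the 32 cells and 1.26 in the largest wells. Another 5 wells within the UMI limits were set aside because their mitochondrial share was 10.7 to 14.6%, and their nuclear share was 1.97%.

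By complex, the nuclear shares of endothelial cells and pericytes ran in parallel. Complex I, NADH dehydrogenase, held 0.502% of UMIs in endothelial cells (156 UMIs) and 0.676% in pericytes (544 UMIs), a log2 ratio of -0.43 (-0.69 to -0.17). By symbol this sum includes *Ndufa4* (14 and 3 UMIs), which went the other way and whose protein is now placed in complex IV. Complex II had 10 and 54 UMIs (0.0322% and 0.0671%), a ratio of -1.06 (-2.20 to -0.07). Complex III had 43 and 152 UMIs (0.139% and 0.189%), a ratio of -0.45 (-0.97 to 0.05). Complex IV, cytochrome c oxidase, had 132 and 412 UMIs (0.425% and 0.512%), a ratio of -0.27 (-0.56 to 0.02), and complex V 193 and 578 UMIs (0.622% and 0.718%), a ratio of -0.21 (-0.45 to 0.03). With genotypes pooled, all 5 nuclear ratios were below 0, but counting error alone reached 0 for complexes III, IV and V. In control cells complex V was not lower in endothelial cells, at 0.744% against 0.701% in pericytes. Complexes I to IV had 0.573, 0.0329, 0.171 and 0.448% in control endothelial cells and 0.617, 0.0623, 0.202 and 0.464% in control pericytes. In knockout cells each complex was lower in endothelial cells, complex V at 0.504% against 0.730%. Among mitochondrial members the ratio was -0.20 (-0.35 to -0.05) for complex I, -0.04 (-0.33 to 0.24) for complex III, 0.02 (-0.14 to 0.17) for complex IV and 0.22 (0.01 to 0.43) for complex V.

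**Figure D2:**
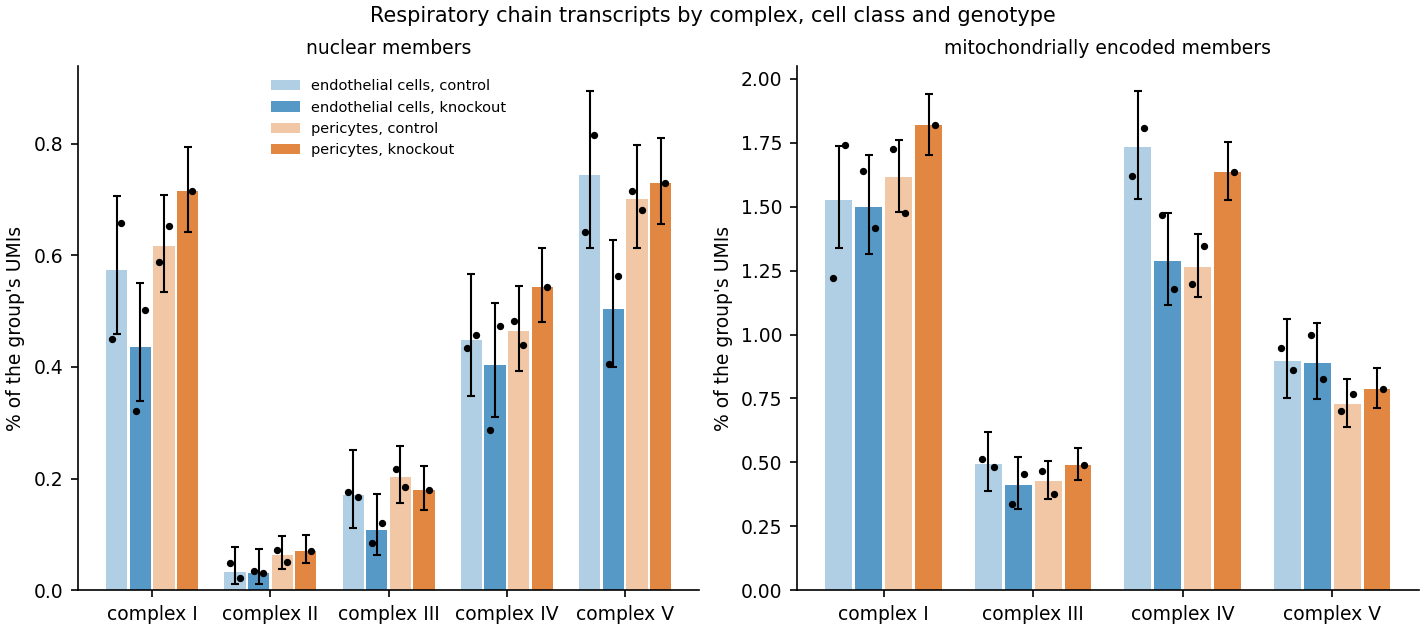
Bars give the share of a group's UMIs (percent) held by the members of each complex, for nuclear members (left) and mitochondrially encoded members (right). Error bars are exact 95% intervals for counting error, and dots are single plates. The knockout endothelial bar for nuclear complex V, 0.504%, is the lowest of the 4 complex V bars, and the mitochondrial complex IV bars of the genotypes are ordered in opposite ways in the 2 classes.

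To test single genes between the classes, UMIs were summed per class and plate, giving 4 endothelial and 3 pericyte sums, and compared with edgeR's quasi-likelihood test, with p-values adjusted by Benjamini-Hochberg over all genes tested. Only 148 genes passed the filter on low counts, among them 12 members: 11 mitochondrial genes (without *mt-Nd4l* and *mt-Nd6*) and *Cox8a* as the only nuclear member. Of these 12, 2 were lower in endothelial cells at an adjusted p under 0.05, namely *mt-Nd2* and *Cox8a*, and 0 were higher. In the background, 23.6% of all 148 genes were called lower and 12.8% higher in endothelial cells, so 2 of 12 is no more than genes in general gave. No member was higher at an unadjusted p under 0.05, and DESeq2 called 0 higher and 1 lower (*mt-Nd2*), where 6.08% of the 148 genes were called higher and 18.2% lower. The median log2 ratio was -0.35 over the 11 mitochondrial members and 0.08 over all 148 genes.

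Both calls depended on the scaling. With the TMM factors of edgeR, endothelial sums were scaled down relative to pericyte sums. With library totals alone, a setting chosen after seeing the data, the median of all genes moved from 0.08 to 0.44, and the split of calls turned from 19 higher and 35 lower in endothelial cells to 46 higher (31.1%) and 23 lower (15.5%). No member was then called in either direction, and the 12 members were split into 6 above and 6 below 0 with a median of -0.01. Relative to the median gene, mitochondrial members were thus lower in endothelial cells under both scalings, while the interval of the ratio of their plain summed shares spanned 0.

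*mt-Nd2* encodes a core subunit of the proton-pumping arm of complex I (mitochondrial genome of GRCm38, positions 3914 to 4951, plus strand). Its level was 19.3 and 36.8 UMIs per 10000 in the endothelial cells of control replicates 1 and 2, and 27.0 and 29.2 in those of knockout replicates 1 and 2. In pericytes it was 48.9 and 27.0 in control replicates 1 and 2 and 43.4 in knockout replicate 2. The classes overlapped, since control replicate 2 was higher in endothelial cells than in pericytes. The log2 ratio of endothelial cells to pericytes was -0.87 ± 0.30 (SE; edgeR adjusted p = 0.0143). Leaving out control replicate 1 gave -0.67 (adjusted p = 0.138) and leaving out knockout replicate 2 gave -0.85 (adjusted p = 0.176). Without the 10 cells whose barcode recurs on another plate, a setting chosen after seeing the data, it was -0.40 (adjusted p = 0.477), and over all alternatives the adjusted p ran from 0.00092 to 0.477.

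*Cox8a* encodes the ubiquitous form of the smallest complex IV subunit (chr19:7215153-7217616, minus strand, GRCm38). It was the nuclear member with the most UMIs, 120 in all, and every pericyte held at least 1. Its level in endothelial cells was 3.21 and 1.12 UMIs per 10000 in the control plates and 10.1 and 12.1 in the knockout plates. In pericytes it was 10.6 and 13.5 in the control plates and 12.6 in the knockout plate. The knockout endothelial plates thus lay near the pericyte plates and the control endothelial plates far below them. The log2 ratio of endothelial cells to pericytes was -1.20 ± 0.44 (SE; edgeR adjusted p = 0.0222), with an adjusted p of 0.00867 to 0.207 over the alternatives that tested it. Leaving out control replicate 2 gave -0.79 (adjusted p = 0.207) and leaving out control replicate 1 gave -1.19 (adjusted p = 0.0704). The gene was not tested without knockout replicate 2, without plate scaling, without an upper UMI limit or without the cells of recurring barcodes.

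The other mitochondrial genes had ratios from -0.51 (*mt-Nd5*) to -0.04 (*mt-Atp6*) in the same fit, with edgeR adjusted p from 0.191 to 0.946. Since 1 mRNA end is counted per molecule, values are molecules and were not divided by gene length. *mt-Atp6*, a subunit of the proton channel of ATP synthase, had the most UMIs of all members, with 66.4 to 84.4 per 10000 in the 4 endothelial plates and 57.5 to 63.5 in the 3 pericyte plates. These ranges did not overlap, with endothelial cells higher in plain shares (log2 ratio 0.26, 0.03 to 0.49), while the TMM-scaled ratio was -0.04 ± 0.31. The catalytic oxidase subunits *mt-Co1*, *mt-Co2* and *mt-Co3* had 54.1, 53.5 and 42.8 UMIs per 10000 in endothelial cells and 50.2, 52.7 and 45.9 in pericytes. *mt-Cytb*, the electron-carrying core of complex III, had 45.1 and 46.5. Among the complex I genes, *mt-Nd1* had 40.6 and 41.4, *mt-Nd4* 46.1 and 46.5, *mt-Nd3* 18.7 and 22.9 and *mt-Nd5* 14.2 and 15.8. For each of these genes the plates of the classes overlapped. *mt-Nd4l* (9 and 42 UMIs) and *mt-Atp8* (48 and 119 UMIs) overlap *mt-Nd4* and *mt-Atp6* on the genome, so the split of reads within each pair is uncertain, as it is for reads shared with nuclear copies of mitochondrial DNA.

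**Figure D3:**
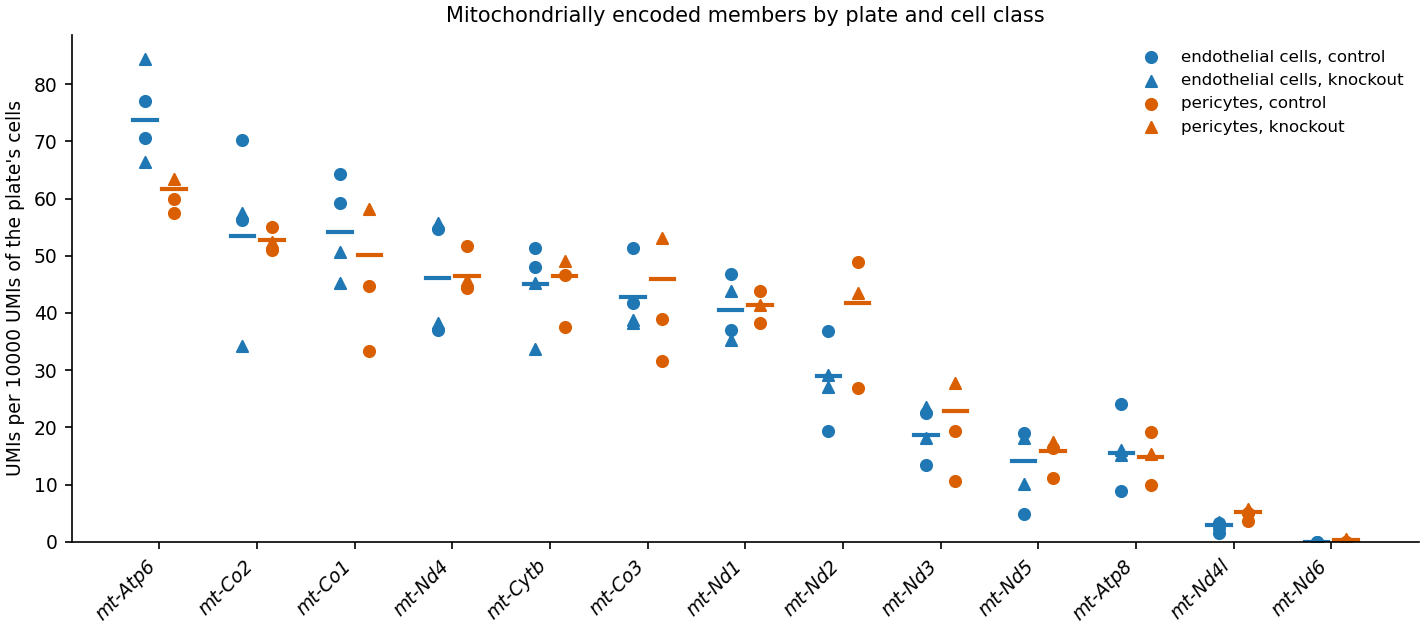
UMIs per 10000 of each mitochondrially encoded member, ordered by total UMIs. Points are plates (circles control, triangles knockout), and lines are the pooled level of a class. The plates of the classes overlap for most genes, and for *mt-Atp6* the 4 endothelial plates, from 66.4 upwards, lie above the 3 pericyte plates.

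Most nuclear members were too sparse for the test. The 2 complex I members with the most UMIs were *Ndufa13* (47) and *Ndufc2* (40), both accessory subunits. *Ndufa13* had 1, 2, 0 and 1 UMIs in the endothelial cells of control replicates 1 and 2 and knockout replicates 1 and 2, against 43 in pericytes (1.29 and 5.34 per 10000; log2 ratio -2.05, -3.99 to -0.59). Its pericyte plates lay at 4.97 to 5.58 and its endothelial plates at 0 to 2.23 UMIs per 10000. With all genes in the test, it was called lower in endothelial cells (edgeR log2 ratio -2.75 ± 0.78, adjusted p = 0.0242), as was *mt-Nd2*, among 94 members, where 1.74% of 10829 genes were called lower and 0.462% higher. Ratios in that fit were shifted towards pericytes. The median log2 ratio was -1.15 over the 10829 genes and -1.27 over the 94 members, against 0.08 over the 148 genes that passed the filter. *mt-Atp6* moved from -0.04 to -0.52, so the ratio of *Ndufa13* in that fit includes such a shift. *Ndufc2* had 12 and 28 UMIs (3.87 and 3.48 per 10000). *Ndufs5*, another accessory subunit, had 0 and 13 (exact interval of the log2 ratio up to -0.23). In complex II, *Sdhc*, a membrane anchor, had 5 and 20 UMIs, and *Sdhb*, the iron-sulfur subunit, 1 and 16. In complex III, the hinge protein *Uqcrh* had 4 and 39 UMIs (1.29 and 4.85 per 10000; -1.91, -3.86 to -0.44) and the core protein *Uqcrc2* 5 and 24. *Cox7c* had 21 and 44 UMIs (6.76 and 5.47 per 10000). In complex V, *Atp5g3*, which encodes the c-ring subunit, had 25 and 67 UMIs (8.05 and 8.33 per 10000) and *Atp5b*, the catalytic beta subunit, 19 and 63 (6.12 and 7.83).

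Some isoforms were found almost entirely in 1 class. *Cox4i2*, the isoform of complex IV subunit 4 known to be induced at low oxygen, had 0 UMIs in the 11 endothelial cells and 15 in pericytes, carried by 10 of the 21 cells and by all 3 pericyte plates. Against a floor of 3 UMIs over the endothelial cells it was at least 1.93-fold higher in pericytes, and the exact interval, which also covers the counting error of the 15 UMIs, allows log2 ratios of endothelial cells to pericytes up to -0.47. Its common partner *Cox4i1* had 18 and 39 UMIs (5.80 and 4.85 per 10000; log2 ratio 0.26, -0.63 to 1.10). *Ndufa4*, which is grouped with complex I by symbol although its protein is now placed in complex IV, went the other way. It had 3, 2, 2 and 7 UMIs in the 4 endothelial plates and 1 in each of the 3 pericyte plates (4.51 and 0.373 per 10000; 3.60, 1.76 to 6.04), and was found in 6 of 11 endothelial cells and 3 of 21 pericytes. *Ndufa4l2*, its hypoxia-induced relative and no member by the rule, had 0 UMIs in endothelial cells and 84 in pericytes, in 20 of 21 cells (at least 10.8-fold higher, against the same floor, with an exact interval of the log2 ratio up to -3.10). All 3 lay below the low-count filter. With all genes in the test, edgeR gave adjusted p = 0.0862 for *Cox4i2*, 0.243 for *Ndufa4* and 3.41e-08 for *Ndufa4l2*. That fit carries the shift towards pericytes described above.

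**Figure D4:**
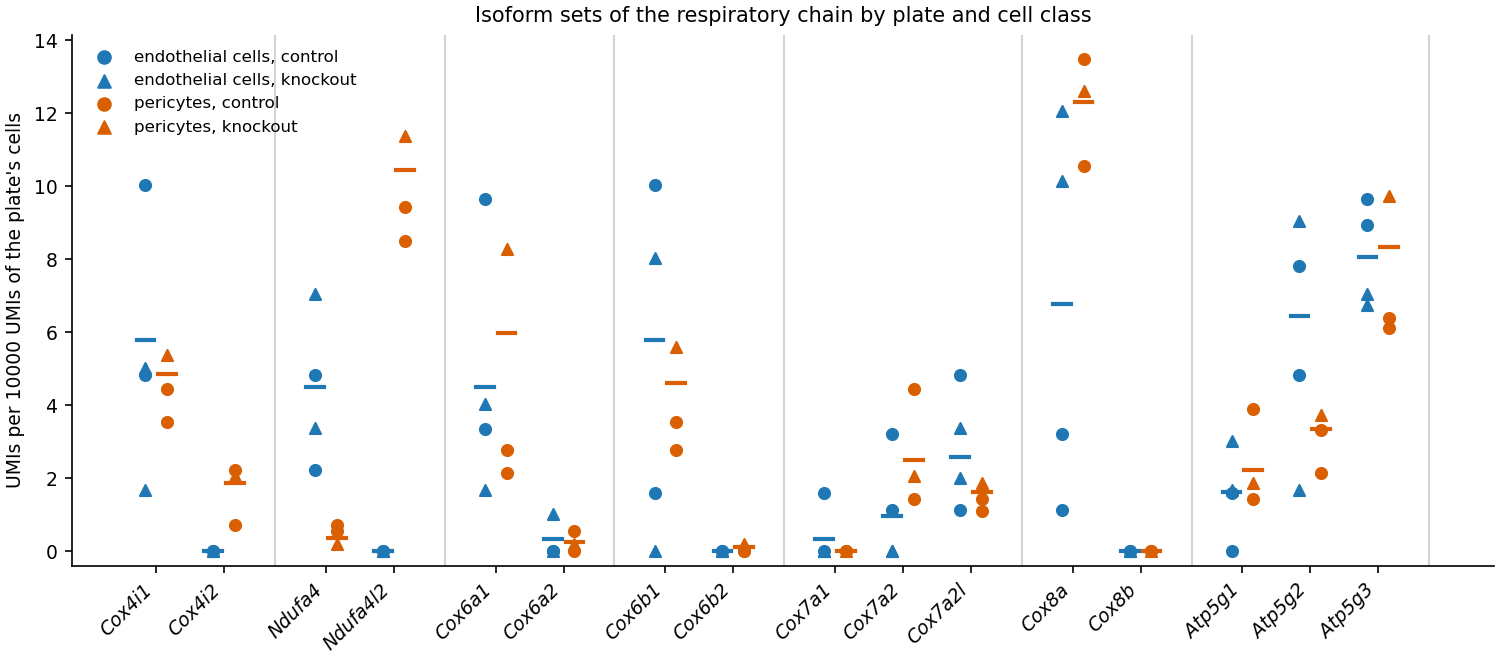
UMIs per 10000 of the isoform sets. Points are plates (circles control, triangles knockout), and lines are the pooled level of a class. *Ndufa4* and *Ndufa4l2* are separated in opposite directions, *Cox4i2* is at 0 in all endothelial plates, and the *Cox8a* points of the control endothelial plates lie below all others of that gene.

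In the remaining isoform sets, forms known from muscle or testis had at most 2 UMIs in a class. *Cox6a1* had 14 and 48 UMIs and the muscle form *Cox6a2* 1 and 2. *Cox6b1* had 18 and 37 and the testis form *Cox6b2* 0 and 1. *Cox7a2* had 3 and 20 UMIs, *Cox7a2l*, which helps assemble supercomplexes, 8 and 13, and the muscle form *Cox7a1* 1 and 0. Of the genes for the ATP synthase c subunit, which encode the same mature protein, *Atp5g1* had 5 and 18 UMIs, *Atp5g2* 20 and 27 (6.44 and 3.36 per 10000; log2 ratio 0.94, 0.03 to 1.83) and *Atp5g3* 25 and 67.

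Control and knockout cells were then compared within each class. With 1 pool per genotype there is no test, and the ratios below carry counting intervals only. In endothelial cells nuclear members held 1.97% of UMIs in controls (1.75 and 2.12% by plate) and 1.48% in knockouts (1.13 and 1.69%), a log2 ratio of control to knockout of 0.41 (0.16 to 0.66). The plates of the genotypes did not overlap. Knockout replicate 1 was the shallowest plate, its 4 endothelial cells holding 1104 to 1785 UMIs each, and without it the ratio was 0.22. Without knockout replicate 2, which had only 2 endothelial cells, it was 0.80. In pericytes the order was the opposite, with 2.05% in controls (2.08 and 2.01%) and 2.24% in knockouts, a log2 ratio of -0.13 (-0.27 to 0.01). That order turned when wells above 8000 UMIs were kept (0.26). Mitochondrial members held 4.65% in control (4.31 and 4.89%) and 4.09% in knockout endothelial cells (4.44 and 3.87%), where plates overlapped (0.19, 0.03 to 0.34), and 4.04% in control (4.09 and 3.97%) and 4.73% in knockout pericytes (-0.23, -0.33 to -0.13). The pericyte ratio of mitochondrial members was -0.08 with cells weighted equally and -0.61 without the cells of recurring barcodes.

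By complex, nuclear complex V members in endothelial cells differed by more than counting error, with 113 UMIs in control and 80 in knockout cells (0.744% and 0.504%; log2 ratio 0.56, 0.14 to 0.99). The other nuclear complexes lay on the same side with intervals that reached 0. Their ratios were 0.40 (-0.07 to 0.87) for complex I, 0.06 (-2.06 to 2.18) for II, 0.68 (-0.26 to 1.65) for III and 0.15 (-0.36 to 0.67) for IV. Mitochondrial complex IV members had 263 and 204 UMIs (1.73% and 1.29%; 0.43, 0.16 to 0.70) in endothelial cells, and 406 and 791 (1.26% and 1.64%; -0.37, -0.55 to -0.20) in pericytes. Mitochondrial complex I members had ratios of 0.03 (-0.24 to 0.29) in endothelial cells and -0.17 (-0.33 to -0.01) in pericytes. Mitochondrial complex V members differed little, with ratios of 0.01 (-0.34 to 0.36) in endothelial cells and -0.11 (-0.35 to 0.13) in pericytes.

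**Figure D5:**
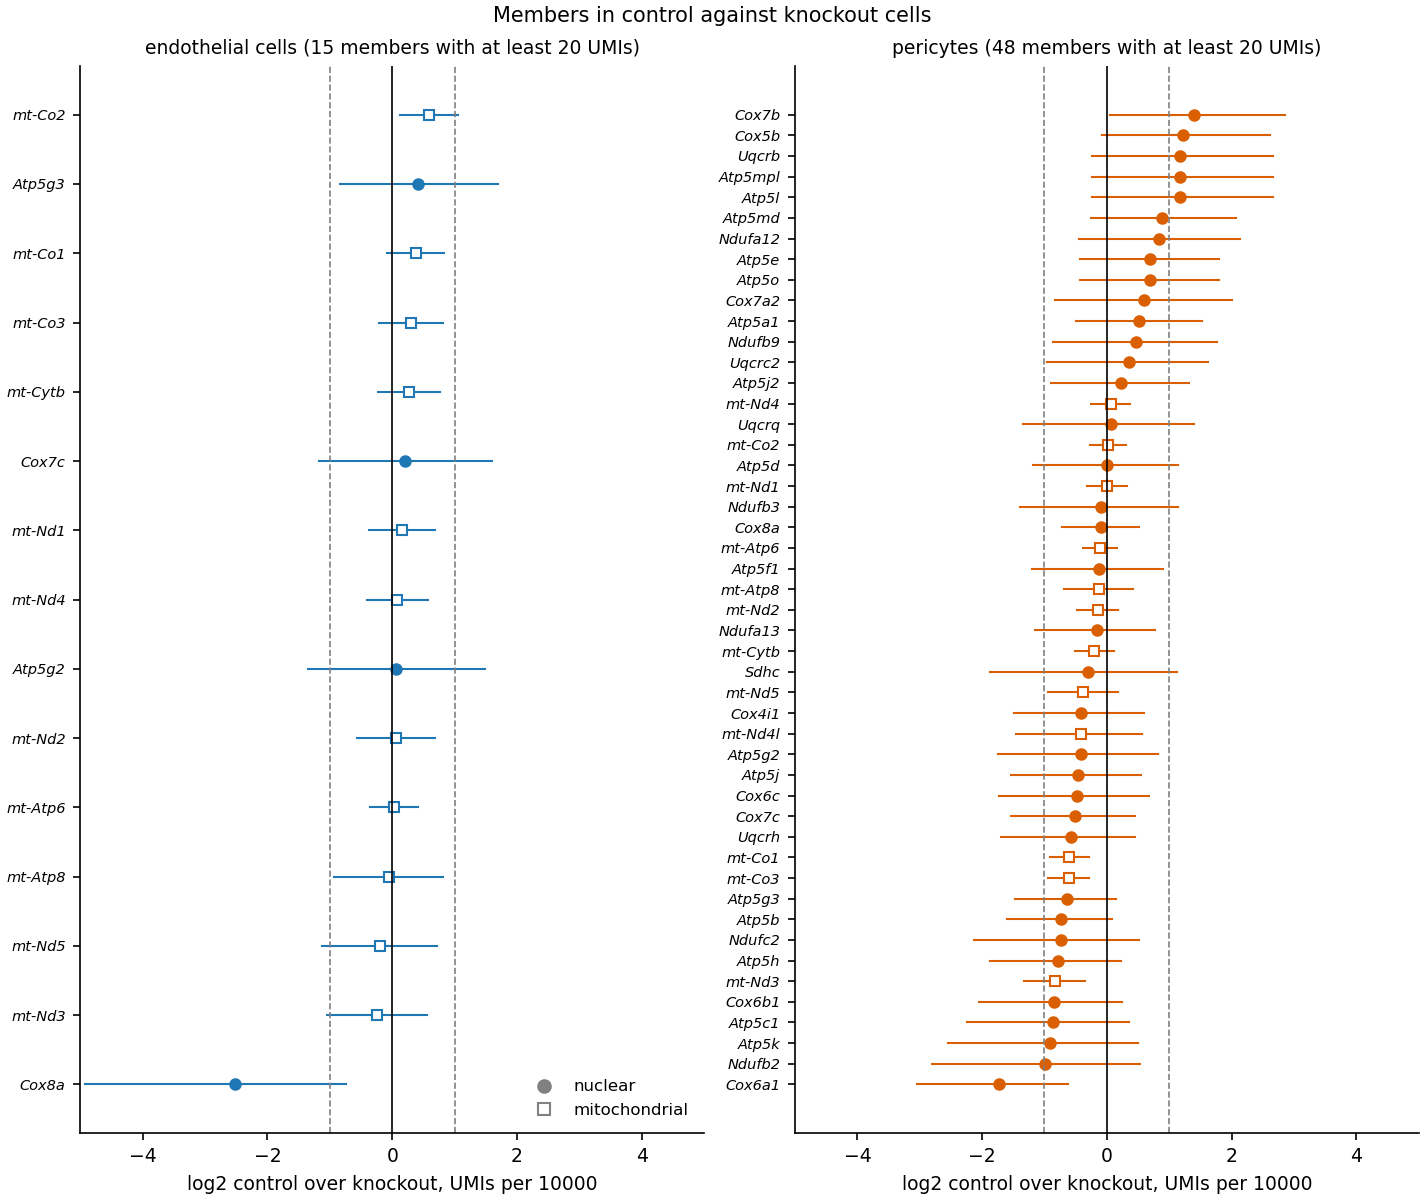
Log2 ratio of control to knockout (UMIs per 10000) for every member with at least 20 UMIs in the class. Filled circles are nuclear and open squares mitochondrial members, horizontal lines exact 95% counting intervals, and dashed lines the 2-fold limits. Most intervals cross 0. *Cox8a* in endothelial cells (-2.52) and *Cox6a1* in pericytes (-1.73) lie farthest to the knockout side.

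Gene by gene, 15 members had at least 20 UMIs in endothelial cells. Of these, 0 were at least 2-fold higher in control, where 7.04% of 213 genes were, and 1 (*Cox8a*) was at least 2-fold higher in knockout, where 11.3% were. *Cox8a* had 2 and 1 UMIs in the control plates and 6 and 12 in the knockout plates, a log2 ratio of -2.52 (-4.93 to -0.75). It was found in 2 of 5 control and 5 of 6 knockout cells, and 1 knockout cell held 9 of the 18 UMIs. The ratio was -3.35 to -1.82 when 1 plate was left out, but the count of 1 became 0 without knockout replicate 1, knockout replicate 2, control replicate 1 or the cells of recurring barcodes, where *Cox8a* had fewer than 20 UMIs, and 2 without control replicate 2 or with a mitochondrial limit of 5%. In pericytes its ratio was -0.09 (-0.72 to 0.52). *mt-Co2* had the largest ratio towards control, 0.59 (0.13 to 1.06), with 56.2 and 70.3 UMIs per 10000 in control and 57.4 and 34.2 in knockout plates, which overlapped. *Atp5g3* (0.41, -0.83 to 1.70) and *mt-Co1* (0.37, -0.08 to 0.83) followed, and *mt-Nd3* (-0.24, -1.04 to 0.56) and *mt-Nd5* (-0.20, -1.13 to 0.72) were on the knockout side. The median ratio was 0.08 for the 11 mitochondrial and 0.13 for the 4 nuclear members, beside 0.06 for all 213 genes.

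In pericytes 48 members had at least 20 UMIs. At least 2-fold higher in control were 5 (*Cox5b*, *Cox7b*, *Atp5l*, *Atp5mpl* and *Uqcrb*), where 6.1% of 754 genes were, and 1 (*Cox6a1*) was at least 2-fold higher in knockout, where 6.63% were. *Cox7b* had 14 and 8 UMIs in control and knockout (1.40, 0.05 to 2.86), *Cox5b* 14 and 9 (1.23, -0.08 to 2.62) and *Atp5l* 12 and 8 (1.18, -0.24 to 2.67). Leaving out control replicate 2 reduced the 5 to 1, leaving out control replicate 1 to 2, and leaving out the cells of recurring barcodes to 0. The knockout-side count of 1 became 5 without control replicate 1, without control replicate 2 or without plate scaling, and 3 without the cells of recurring barcodes, so the balance of 5 to 1 did not hold. *Cox6a1* had 8 UMIs in 5 of 9 control cells and 40 in 11 of 12 knockout cells, that is, 2.78 and 2.13 UMIs per 10000 in the control plates and 8.27 in the knockout plate (-1.73, -3.04 to -0.62). It was -0.56 when wells above 8000 UMIs were kept. In endothelial cells *Cox6a1* had 6 and 3 UMIs in control and 1 and 4 in knockout plates (0.91, -0.82 to 2.84), and the plates overlapped. *Ndufb2* (-0.99, -2.81 to 0.54) and *Atp5k* (-0.91, -2.54 to 0.50) came next on the knockout side. Among mitochondrial genes *mt-Nd3* (-0.83, -1.33 to -0.35), *mt-Co3* (-0.61, -0.94 to -0.28) and *mt-Co1* (-0.60, -0.92 to -0.29) were higher in knockout pericytes by more than counting error. The median ratio was -0.11 over 36 nuclear and -0.17 over 12 mitochondrial members, beside -0.04 for all 754 genes.

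Promoters are shown for *Ndufa4* and for the 2 nuclear genes with the largest genotype ratios among members with at least 20 UMIs in the class. This lets their upstream sequence be compared. Nuclear respiratory genes are known targets of NRF1, of the ETS factor GABP and of YY1. RefSeq windows of GRCm38.p6, running from 250 bases before to 50 bases after each start, were at hand for 68 of the 84 nuclear members (73 windows). The core of the NRF1 motif (GCATGCG, either strand) was in 11 of the 73 windows (15.1%, against 3.58% of 32851 windows of all genes and 4.44% of those of coding genes). The GABP core (CCGGAAG) was in 17 (23.3%, against 8.86% and 11.6%), and the YY1 core (ATGGCGG) in 11 (15.1%, against 4.05% and 5.24%). In all, 31 of the 68 genes held at least 1 of the 3 cores. A match is a description of the letters and no evidence of binding. The stretches below run 5′ to 3′ on the gene's own strand and end 15 bases after the start, with matches in capitals. In *Cox6a1* (chr5:115348944-115349133, minus strand) NRF1 matches on both strands overlap and a GABP core follows nearer the start, in *Cox8a* (chr19:7217602-7217791, minus strand) a GABP core spans the start (another lies outside the stretch), and in *Ndufa4* (chr6:11907436-11907625, minus strand) none of the 3 cores occurs.
Cox6a1: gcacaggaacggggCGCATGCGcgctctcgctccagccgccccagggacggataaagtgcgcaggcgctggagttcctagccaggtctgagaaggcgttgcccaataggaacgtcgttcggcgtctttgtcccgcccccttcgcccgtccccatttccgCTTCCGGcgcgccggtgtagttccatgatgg
Cox8a: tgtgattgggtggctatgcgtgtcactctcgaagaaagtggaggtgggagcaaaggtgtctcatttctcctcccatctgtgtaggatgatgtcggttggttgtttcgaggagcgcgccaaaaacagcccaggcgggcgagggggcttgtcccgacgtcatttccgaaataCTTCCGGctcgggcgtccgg
Ndufa4: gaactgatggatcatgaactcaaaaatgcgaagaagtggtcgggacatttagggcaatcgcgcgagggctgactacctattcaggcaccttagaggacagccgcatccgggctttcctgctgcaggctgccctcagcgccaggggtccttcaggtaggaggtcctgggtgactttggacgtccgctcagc

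Other genes of the pathway were given by lists. None of the 89 genes of these lists passed the low-count filter, so none was tested. Assembly factors (40 of 44 detected) held 19.0 UMIs per 10000 in endothelial cells and 18.02 in pericytes (log2 ratio 0.08, -0.39 to 0.52). Enzymes of the tricarboxylic acid cycle and pyruvate dehydrogenase (15 of 15 detected) held 14.5 and 20.01 (-0.47, -0.98 to 0.02). Factors of mitochondrial gene expression and biogenesis (13 of 16) held 7.09 and 7.21 (-0.02, -0.80 to 0.71), with 4.61 in control and 9.46 in knockout endothelial cells and 11.5 in control and 4.34 in knockout pericytes. These genotype levels rest on few UMIs and have no interval, and 1 knockout endothelial cell gave 4 UMIs of a single gene. Carriers of electrons, nucleotides and phosphate (8 of 8) held 21.6 and 28.2 (-0.39, -0.80 to 0.01), among them cytochrome c (*Cycs*) with 5 and 27 UMIs and the phosphate carrier *Slc25a3* with 13 and 46. In control and knockout endothelial cells, assembly factors held 24.4 and 13.9 UMIs per 10000, carriers 25.7 and 17.7, and the tricarboxylic acid cycle list 14.5 in both. The list of regulators linked to low oxygen stood apart, with 2.26 UMIs per 10000 in endothelial cells and 20.9 in pericytes (-3.21, -4.55 to -2.14). Its pericyte level came mainly from *Ndufa4l2* and from *Higd1b*, a relative of complex IV assembly factors and a marker of pericytes that is also in the pericyte list (0 and 52 UMIs). *Higd2a* had 2 UMIs in endothelial cells and 27 in pericytes. The rest of the list did not share this order: *Higd1a* had 0.644 and 0.621 UMIs per 10000, *Bnip3* 2 and 0 UMIs and *Pdk1* 1 and 0. In each genotype the order of the summed list was the same, with 1.98 and 18.7 in control and 2.52 and 22.3 in knockout cells.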

How the data were processed

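The authors sorted single cells into 4 plates of 384 wells (SORT-seq), added spike-in RNA, and deposited one matrix of estimated counts (UMIs of transcript 3′ ends) per plate. The submitters' processing notes name STARsolo 2.7.11b and GRCm38. How reads that match several genes were shared, and the annotation, are not given in the sources used here. Of the deposited values above 0, 94.52% were whole (tolerance 1e-09), and the rest were rounded. Spike-ins were left out of all totals. Plates held 51972 to 174645 mouse UMIs.

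The members, gene lists and tests were chosen with earlier results of these data known. Wells were filtered and classed as described above, with the UMI limits applied after scaling plates to each other and all values given unscaled. Shares have exact Clopper-Pearson intervals, and ratios exact conditional binomial intervals (95%). PCR and capture are not covered by them. UMIs summed per class and plate were compared with edgeR 4.0.16 (quasi-likelihood, TMM, its default filter on low counts, adjusted p threshold 0.05; R 4.3.3), with DESeq2 1.42.0 as an alternative. Plates of a genotype share a pool, so p-values measure a spread that may be technical. In 5 simulations per fold, 68 genes changed 2-fold and 122 changed 4-fold between endothelial and pericyte sums passed the low-count filter. Of these, the edgeR test recovered 29.4% and 100%. Most changed genes fell below the filter, so they were not tested and do not enter these percentages. All genes were simulated with the same spread between sums. Apart from the changed genes, as many raised as lowered, both classes were drawn from the same profile. The difference between scalings seen in the real sums was thus not simulated, and these percentages do not cover it.

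Named were the called members, the 13 mitochondrial genes, the 2 nuclear members of each complex with the most UMIs, the 3 largest genotype ratios each way per class (at least 20 UMIs), and isoform sets. *Ndufs5*, *Atp5mpl*, *Uqcrb* and, among genes of the lists, *Higd1a*, *Higd1b*, *Higd2a*, *Bnip3*, *Pdk1*, *Cycs* and *Slc25a3* were named after their values were seen. Python 3.11.15 with scipy 1.17.1 was used. No doublet caller was run, and wells with both class markers were left out. Promoter windows for 16 nuclear members were not analysed here.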

Additional observations from a re-analysis of the deposited data

Results flagged for a closer look

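Of 26 shares and named members compared, 8 were flagged: 4 shares and 4 genes, which overlap in content. In these, both control plates lay above both knockout plates in endothelial cells, while both control plates lay below the knockout plate in pericytes. Of the 213 genes with at least 20 UMIs in endothelial cells, 10 (4.70%) had this pattern and 7 (3.29%) its reverse, and the 4 genes named here were 4 of the 15 members among the 213. The difference between the classes was not tested in any of them, since a genotype is 1 pool and all knockout pericytes come from 1 plate. The log2 ratio of control to knockout was 0.41 in endothelial cells and -0.13 in pericytes for the nuclear share, and 0.56 and -0.06 for nuclear complex V. It was 0.43 and -0.37 for mitochondrial complex IV, within which *mt-Co1* had 0.37 and -0.60 and *mt-Co3* 0.30 and -0.61. Mitochondrial complex III, whose only member is *mt-Cytb*, had 0.27 and -0.20. *Atp5g3* had 0.41 and -0.64, with 8.93 to 9.64 UMIs per 10000 in control and 6.75 to 7.04 in knockout endothelial plates, and 6.11 to 6.39 in control and 9.72 in knockout pericyte plates. It rests on 14 control and 11 knockout UMIs in endothelial cells. Only mitochondrial complex IV differed by more than counting error in both classes. Counting intervals reached 0 for all 4 genes in endothelial cells. In pericytes they reached 0 for *Atp5g3*, *mt-Cytb*, the nuclear share and nuclear complex V. In endothelial cells, erythroid UMIs per 10000 were 0 and 260 in control replicates 1 and 2 and 5.07 and 0 in knockout replicates 1 and 2. They thus set control replicate 2 apart from the other plates, and low depth did so for knockout replicate 1. The part of either in the endothelial order was not tested. The nuclear ratio in endothelial cells was 0.47 with globin and ribosomal protein genes taken out of the totals.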

How the results depend on the processing

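The 2 members called lower in endothelial cells became 1 with a mitochondrial limit of 5% and with DESeq2. Without the filter on low counts 2 were called, but these were *mt-Nd2* and *Ndufa13*, and *Cox8a* was not called (edgeR adjusted p = 0.0633). With mitochondrial genes taken out, *Cox8a* was the 1 member tested and was still called (count 1). The count became 0 without plate scaling, without an upper UMI limit and, in the settings chosen after seeing the data, with library totals alone or without the cells of recurring barcodes. Leaving out 1 plate gave 0 to 2: 0 without knockout replicate 2 or control replicate 1, and 1 without control replicate 2. With plate as a replicate block, pairing the classes of a plate, 2 were lower and 0 higher. The classes of a plate share a suspension and a library, but their deviations were hardly correlated (-0.01 to 0.10 over 148 genes), and the block changed no call of a member. Over all genes, calls went from 19 higher and 35 lower to 50 and 188 without the filter on low counts, 9 and 27 with DESeq2, and 8 and 16 without recurring barcodes. No member was called higher in endothelial cells under any of the 17 alternatives.

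The log2 ratio of control to knockout for nuclear members ranged from 0.22 to 0.80 in endothelial cells and from -0.16 to -0.11 in pericytes when 1 plate was left out, and was 0.26 in pericytes without the upper UMI limit. For mitochondrial members in pericytes it was -0.11 without plate scaling, -0.61 without recurring barcodes, -0.083 with cells weighted equally and -0.10 without the largest cell of each group. The causes were not tested. The endothelial to pericyte ratio of nuclear members, with genotypes pooled, stayed between -0.50 and -0.22 under its 16 alternatives. Knockout replicate 2 held all knockout pericytes, so no genotype value in pericytes could be had without it. With 32 cells, most nuclear members had too few UMIs for a test.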
